A study of Mus musculus with 10 samples.

Results

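The amount of choroid plexus RNA varied widely among the 10 hippocampus samples of this series, and 8 of the 10 were placed in 2 groups by their level of Ttr. Ttr encodes transthyretin, the main protein made by the epithelium of the choroid plexus, and its level was taken in CPM, the usual read count of a gene scaled to the total count of its sample. The 3 samples with less than 500 CPM of Ttr, Dp1Tyb1, Dp1Tyb4 and WT2, formed the Ttr-low group, and the 5 samples with more than 3000 CPM, Dp1Tyb5, Dp1Tyb3, WT4, WT5 and WT3, formed the Ttr-high group. The 2 samples in between, Dp1Tyb2 and WT1, were left out of that comparison. The groups therefore came from a measured value and not from the labels. High against low is thus a description of these samples and gives no test. Ttr itself stays out of every count of genes below.

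All samples were whole hippocampi from male littermates that the labels give as 18 weeks old, and whose strain they give as C57BL/6J.129P2. By the study's methods the mice were slightly older than the labels say, and the line had been backcrossed to C57BL/6J. WT mice were wild-type, and Dp1Tyb mice carried Dp(16Lipi-Zbtb21)1TybEmcf, a duplication of the segment of chromosome 16 orthologous to human chromosome 21, used to model Down syndrome. Each sample was the hippocampus RNA of 1 mouse sequenced as 1 library, so bulk values cannot tell fewer cells of a type from less RNA per cell. The Ttr-high group held 3 WT and 2 Dp1Tyb samples and the Ttr-low group 1 WT and 2 Dp1Tyb samples, and genotype was a term in the fit of high against low.

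The choroid plexus is a frond of vascular tissue in the ventricles of the brain that secretes cerebrospinal fluid. It consists of an epithelium joined by leaky tight junctions over a stroma with fenestrated capillaries and macrophages, and its epithelium moves water, ions, folate, hormones and metals between blood and fluid. It lies against the hippocampus at the choroid fissure and is separated from the ventricle lining, the ciliated ependyma, by a sharp boundary.

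Total counts ranged from 18227684 to 43692270 per sample, and mitochondrial genes took 5.50% to 6.65% of them. Markers of the hippocampal fields were present in all 8 grouped samples, at 1103 to 1259 CPM summed. WT2 stood apart among the low samples. It carried 98 reads of Gabra6, a GABA receptor subunit of cerebellar granule cells, against 0 or 1 in every other sample, and its levels of Cbln3 (13.9 CPM) and Fat2 (9.03 CPM), which are also known from those cells, were far above the ranges of 0.622 to 1.45 CPM and 0.200 to 1.00 CPM in the other 9 samples. These 3 genes were picked after their values had been seen, and their part in the results was not tested. For many, but not all, results that rest on WT2 the value without it is given as well.

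Ttr was at 12.9 CPM in Dp1Tyb1 and 15.9 CPM in Dp1Tyb4, and at 361 CPM in WT2, the value just below the lower limit. Dp1Tyb2 at 1285 CPM and WT1 at 2678 CPM lay between the limits, and Dp1Tyb5 at 3293 CPM lay just above the upper limit. Dp1Tyb3 had 3484, WT4 3797, WT5 4538 and WT3 4946 CPM. The low group was thus uneven, with both Dp1Tyb samples far below WT2.

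The other markers of choroid plexus epithelium were separated in the same way. Aqp1 (chr6:55336432-55348555, GRCm38), the water channel of the apical membrane, was at 0.573, 0.515 and 2.54 CPM in Dp1Tyb1, Dp1Tyb4 and WT2, and at 29.0, 26.0, 39.8, 39.4 and 41.9 CPM in Dp1Tyb5, Dp1Tyb3, WT4, WT5 and WT3. This corresponded to a log2 fold change, high minus low with genotype in the fit, of 4.85 ± 0.21 (SE). Without WT2 it was 5.63. Every high sample lay at least at 26.0 CPM and no low sample above 2.54 CPM.

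In the same sample order, Folr1 (chr7:101858331-101870788), the folate receptor that carries folate into cerebrospinal fluid, was at 1.03, 1.36 and 3.87 CPM in the low samples and 31.5, 25.7, 34.2, 41.4 and 46.2 CPM in the high samples (log2 fold change 4.05 ± 0.21). Cldn2 (chrX:139800828-139811386), a pore-forming claudin of leaky tight junctions, was at 0.436, 0.727 and 3.16 CPM against 25.6, 20.4, 28.1, 31.7 and 31.8 CPM (4.30 ± 0.29). For both genes the groups did not overlap, and WT2 was the highest of the low samples. Without WT2 the log2 fold change of Cldn2 was 5.34. That of Folr1 ranged from 3.79 to 4.59 when each of the 8 samples was left out. Folr1 overlaps Anapc15 on the other strand.

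Kl (chr5:150952607-150993817), which encodes klotho, a co-receptor for a fibroblast growth factor that is also shed into the fluid, was at 18.5, 22.8 and 38.0 CPM in the low samples and 170.1, 144, 169, 242 and 233 CPM in the high samples (2.75 ± 0.14). Otx2 (chr14:48657677-48673819), a homeodomain transcription factor needed to form and keep the choroid plexus, was at 0.642, 0.545 and 2.25 CPM against 18.5, 15.8, 17.2, 24.6 and 23.8 CPM (4.12 ± 0.25). Again no low sample reached a high one, and without WT2 the log2 fold change of Otx2 was 4.82. Kl kept the most signal in the low samples, at 13.8% of its high mean, whereas Aqp1 kept 3.43%. None of the 5 markers was at 0 in any sample.

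**Figure D1:**
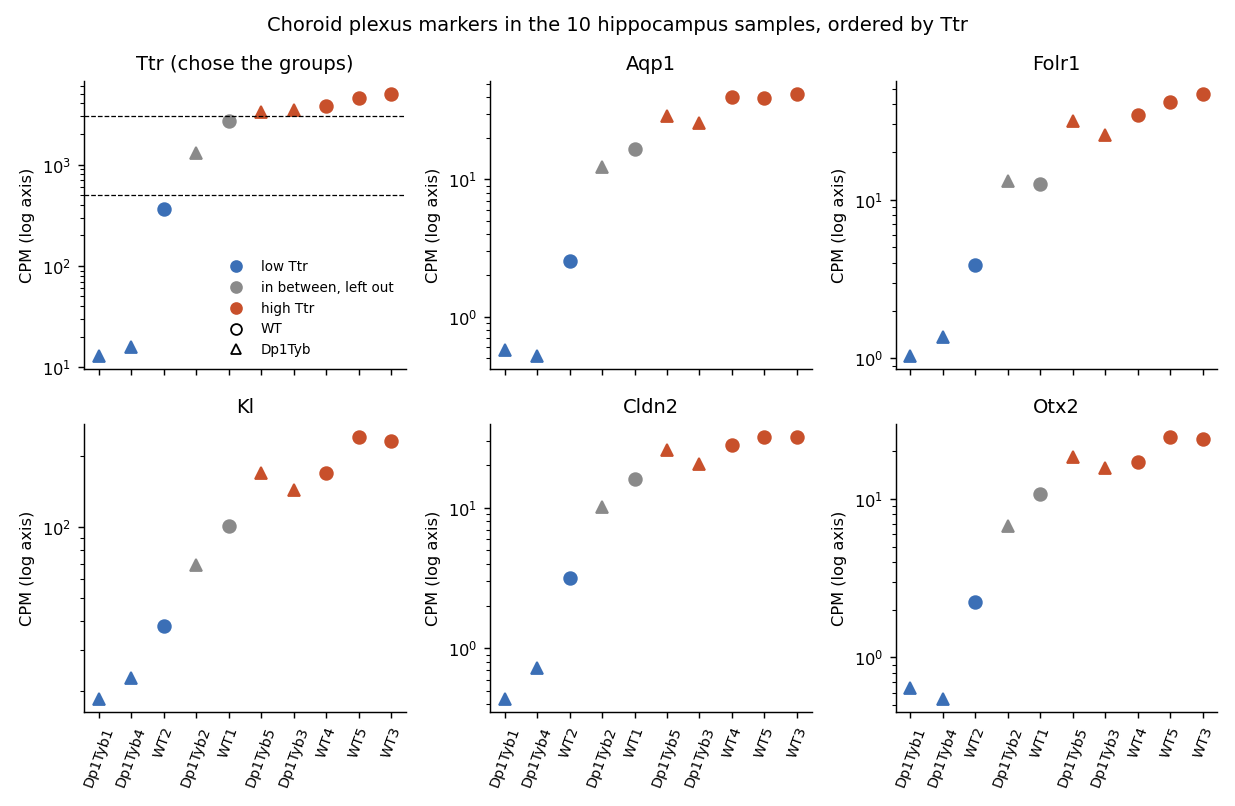
Level of Ttr and of 5 other choroid plexus markers in each of the 10 samples, in CPM on log axes, with samples ordered by Ttr. Dashed lines mark the limits of 500 and 3000 CPM of Ttr, colours give the Ttr group and symbols the genotype. In all 6 panels the 3 low samples lie below and the 5 high samples above the 2 samples in between.

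A list of 39 symbols for choroid plexus epithelium, without Ttr, held 38 genes of the count table, since Ecrg4 and 1500015O10Rik name the same gene. All 38 passed the filter on low counts, which a gene can pass through the high samples alone. Of these, 37 were called higher in the Ttr-high samples, meaning an adjusted p under 0.05 in edgeR, and 0 were called lower, where 3.42% of all 17367 genes tested were called higher. The list chose genes for the epithelium that Ttr marks, so nothing is read from that share. The median log2 fold change of the list was 3.09, beside −0.0041 over all genes tested. The summed level of the list was 377 CPM in Dp1Tyb1, 414 CPM in Dp1Tyb4 and 689 CPM in WT2, and between 2881 and 4581 CPM in the high samples. How strand was treated in counting is not known, so reads may be mixed for genes with an overlapping neighbour, which among those named here include Otx2 (Otx2os1), Cldn3 (Wbscr25), Clic6 (2410124H12Rik), Rdh5 (Bloc1s1), Esm1 (Gzmk), Igf2 (Igf2os), Dnah11 (Cdca7l), Sod1 (Scaf4) and Emc8 (Cox4i1).

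Taken per sample, the median log2 level of the list relative to each gene's mean was −1.91 ± 0.56 (SD, n = 3) in the low samples and 1.24 ± 0.27 (SD, n = 5) in the high samples, a difference of 3.15. Without WT2 the difference was 3.46. Within WT it was 2.68, with WT2 as the only low sample, and within Dp1Tyb it was 3.24.

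Among channels and transporters, 15 of 15 genes were called higher. Besides Aqp1, the largest log2 fold changes were those of Tmem72 (5.40 ± 0.38), Slc4a5 (4.88 ± 0.38) and Kcnj13 (4.83 ± 0.29). Slc4a5, a sodium bicarbonate cotransporter, was at 0.206, 0.273 and 4.16 CPM in Dp1Tyb1, Dp1Tyb4 and WT2 and 32.7, 31.6, 43.98, 50.8 and 54.4 CPM in Dp1Tyb5, Dp1Tyb3, WT4, WT5 and WT3. Kcnj13, an inward rectifier potassium channel, was at 0.206, 0.151 and 0.915 CPM against 10.9, 9.96, 10.3, 13.1 and 13.01 CPM, and Gigyf2 overlaps it on the other strand. In both genes WT2 lay several times above the other low samples and far below every high one. Without WT2 the log2 fold changes of Tmem72, Slc4a5 and Kcnj13 were 7.63, 7.07 and 5.80.

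The rest of the transporter group covered a wide range. Log2 fold changes were 4.32 for Steap1, a STEAP family protein, 3.18 for the osmosensitive cation channel Trpv4 and 2.96 for the retinoid transporter Abca4. The organic anion transporter Slco1a5 was at 2.88 and the sugar transporter Slc2a12 at 2.77. The smallest differences were those of the carbonic anhydrases Car14 (1.38) and Car12 (1.31), the copper transporter Slc31a1 (1.18) and the monoamine and nucleoside transporter Slc29a4 (0.86). These 4 genes kept between 37.2% and 52.5% of their high mean in the low samples. Slc29a4, for example, was at 33.1, 28.8 and 35.9 CPM in the low samples and 57.5, 53.1, 60.8, 76.9 and 62.4 CPM in the high samples, with no overlap.

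Among junction and keratin genes, 6 of 7 were called higher. Krt18, a keratin of simple epithelia, was at 0.390, 0.848 and 1.04 CPM against 8.90, 7.198, 8.96, 10.8 and 9.81 CPM (3.55 ± 0.21), and its partner Krt8 at 0.779, 0.909 and 0.666 CPM against 6.80, 5.199, 4.66, 7.32 and 5.69 CPM (2.92 ± 0.21). Cldn1 and Perp, a component of desmosomes, had smaller log2 fold changes of 1.59 and 1.25. Cldn3 (2.06 ± 0.48) was thinly covered, at 0.182 to 0.333 CPM in the low and 0.636 to 2.52 CPM in the high samples, and its call was lost when WT2, Dp1Tyb1, Dp1Tyb3, Dp1Tyb4 or Dp1Tyb5 was left out. Cdh1, which encodes E-cadherin, was the exception of the list. Its levels overlapped, at 0.825, 2.33 and 1.37 CPM in the low and 1.23, 0.760, 2.06, 0.513 and 2.01 CPM in the high samples (log2 fold change −0.29 ± 0.44).

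All 4 receptors were called higher. Mfrp, a membrane protein with a frizzled-like domain, was at 0.321, 0.394 and 4.16 CPM in Dp1Tyb1, Dp1Tyb4 and WT2 against 36.4, 28.8, 41.7, 51.6 and 52.4 CPM in Dp1Tyb5, Dp1Tyb3, WT4, WT5 and WT3 (4.77 ± 0.36), and it overlaps C1qtnf5 on the same strand. Prlr, the prolactin receptor, was at 4.88, 5.27 and 8.86 CPM against 52.2, 45.2, 59.4, 65.4 and 81.3 CPM (3.14 ± 0.12). Neither gene overlapped between the groups, and in both WT2 was the highest of the low samples. Without WT2 the log2 fold change of Mfrp was 6.51.

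All 9 genes for secreted proteins and enzymes were called higher. Enpp2, which encodes autotaxin, the enzyme that makes lysophosphatidic acid, had the most reads of the list, at 152, 167 and 376 CPM in the low and 1819.6, 1747, 1909.8, 2394 and 2812 CPM in the high samples (3.11 ± 0.17). F5, coagulation factor V, was at 1.31, 1.94 and 10.3 CPM against 67.7, 53.5, 74.9, 94.6 and 116 CPM (4.17 ± 0.32), and without WT2 its log2 fold change was 5.25. For 1500015O10Rik, which encodes the secreted peptide augurin, the values were 1.56, 2.24 and 4.74 CPM against 36.2, 34.8, 43.1, 49.1 and 55.6 CPM (3.87 ± 0.17).

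No secreted gene overlapped between the groups. Wdr86 had a log2 fold change of 3.92 ± 0.22. Sostdc1, an antagonist of BMP and Wnt signalling, and Calml4, a calmodulin-like protein, were at 3.07 and 3.02. Igfbp2, a binding protein for insulin-like growth factors, was at 2.44. Vat1l (1.63) and Cab39l (1.27) differed least, and kept 31.1% and 40.0% of their high mean in the low samples.

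All 3 transcription factors were called higher. Besides Otx2, Lmx1a, a LIM homeodomain factor of the dorsal midline, was at 0.206, 0.454 and 0.166 CPM against 2.87, 2.96, 3.57, 2.56 and 3.80 CPM (3.45 ± 0.30), and Msx1, a homeodomain factor of the same territory, at 3.51, 4.09 and 4.37 CPM against 17.4, 15.2, 18.5, 24.5 and 24.2 CPM (2.20 ± 0.13). OTX proteins bind DNA at a core that is read as TAATCC, or GGATTA on the other strand. RefSeq promoters (GRCm38.p6, 250 bases before to 50 after a transcript start) matched 32 of the 38 genes, with 41 promoters in all. Of these 41, 5 held the core on either strand (12.2%), against 7.06% of all 32851 promoters in the table. They belonged to Mfrp, Otx2 (1 of its promoters), Abca4, Vat1l and Car14. Clic6, Perp, Cdh1, Folr1, Enpp2 and Sostdc1 were not matched.

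The 250 bases before the start are printed for the 3 matching genes with the largest log2 fold changes, read 5′ to 3′ on the strand of the gene, because they show where the core lies in a receptor, in the factor itself and in a transporter. Capitals mark the core, read there as GGATTA, which starts 134, 211 and 58 bases before the transcript start of Mfrp, Otx2 and Abca4. A match to these letters is a description and not a measured binding site.
Mfrp chr9:44101520-44101769 (+ strand): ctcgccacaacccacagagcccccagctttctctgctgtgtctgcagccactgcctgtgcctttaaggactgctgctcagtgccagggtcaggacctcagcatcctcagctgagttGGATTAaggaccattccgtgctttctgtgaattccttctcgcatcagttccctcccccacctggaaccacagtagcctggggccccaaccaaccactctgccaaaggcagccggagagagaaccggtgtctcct
Otx2 chr14:48665110-48665359 (− strand): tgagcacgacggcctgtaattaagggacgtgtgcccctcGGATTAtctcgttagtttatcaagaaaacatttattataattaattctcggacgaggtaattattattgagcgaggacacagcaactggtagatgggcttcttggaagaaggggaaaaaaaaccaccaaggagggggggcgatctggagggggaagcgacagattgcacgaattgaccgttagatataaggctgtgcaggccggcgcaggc
Abca4 chr3:122044210-122044459 (+ strand): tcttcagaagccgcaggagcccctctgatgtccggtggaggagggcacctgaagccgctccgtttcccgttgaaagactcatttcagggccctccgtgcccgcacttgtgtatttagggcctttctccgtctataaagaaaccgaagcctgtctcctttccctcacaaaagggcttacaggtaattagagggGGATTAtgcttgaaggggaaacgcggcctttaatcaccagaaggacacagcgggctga

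**Figure D2:**
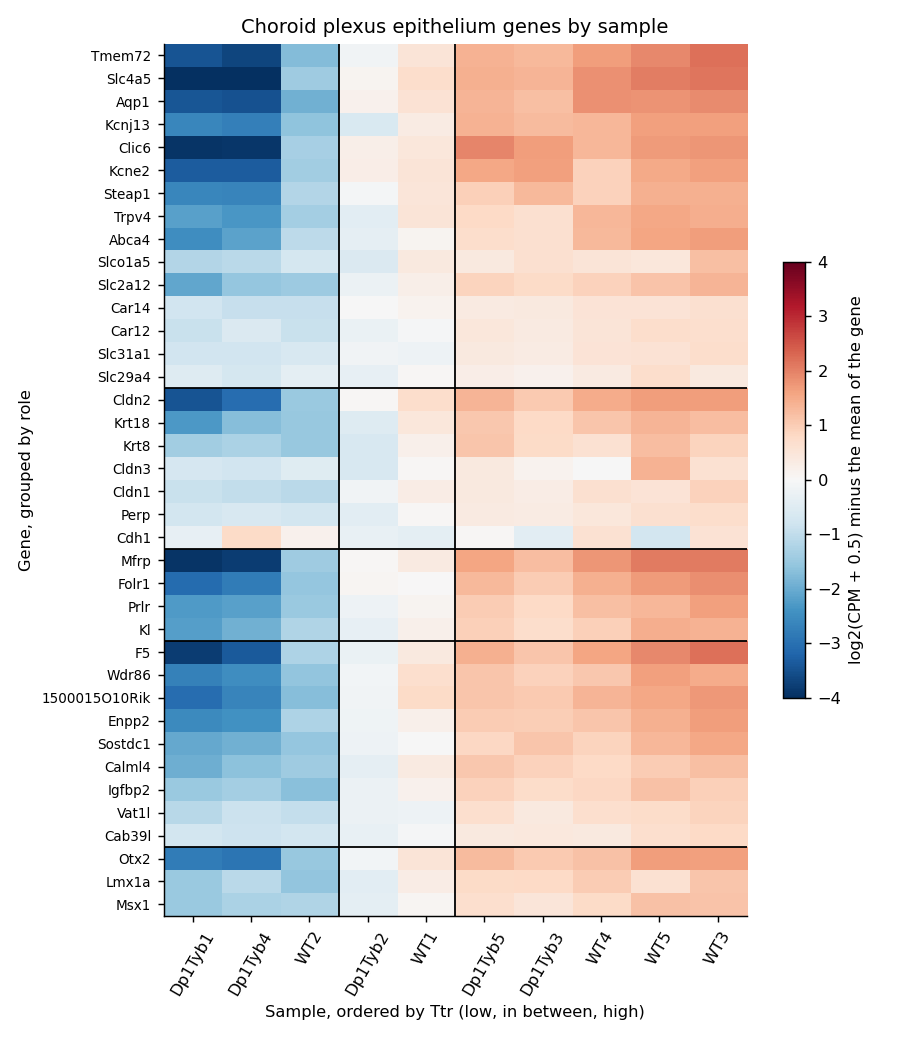
Levels of the 38 choroid plexus epithelium genes in the 10 samples, as log2(CPM + 0.5) minus the mean of each gene, with samples ordered by Ttr and genes grouped by role (from top: channels and transporters, junctions and keratins, receptors, secreted proteins, transcription factors). Blue is below and red above the mean of the gene. All 3 low samples lie below and all 5 high samples above the mean of the gene except for Cldn3, where WT4 is at the mean, and Cdh1.

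The samples in between took no part in the comparison of high with low, but the same rule set them apart by their Ttr level. Intermediate levels of genes that follow Ttr are thus partly given by that choice, and the positions are a description only. For each gene their position was taken from the mean of the low group (0%) to the mean of the high group (100%). For Ttr, WT1 lay at 65.7% and Dp1Tyb2 at 29.8%. For the choroid plexus list the median position was 46.7% for WT1 and 28.8% for Dp1Tyb2, and 37 and 36 of the 38 genes lay between the group means. Both samples thus held intermediate levels of nearly every list gene. In WT1, the position of the list was lower than that of Ttr.

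Over all genes, 607 were called (3.5% of those tested), of which 594 were higher (3.42%) and 13 lower (0.0749%) in the Ttr-high samples. Without WT2 the counts were 360 and 2, and 318 of the 607 calls were shared. Of the 594, 576 were protein coding and 572 had samples that did not overlap, while 7.06% of all tested genes did not overlap and were higher and 3.03% did not overlap and were lower. Most differences were small, with 349 genes under 2-fold, 245 over 2-fold, 118 over 4-fold and 64 over 8-fold. In the samples that the rule left out for their Ttr level, WT1 lay between the group means for 542 of the 594 and Dp1Tyb2 for 535. The median positions were 44.6% and 29.4%. Of the 16760 genes tested and not called, 4426 and 4814 lay between the group means in WT1 and Dp1Tyb2.

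**Figure D3:**
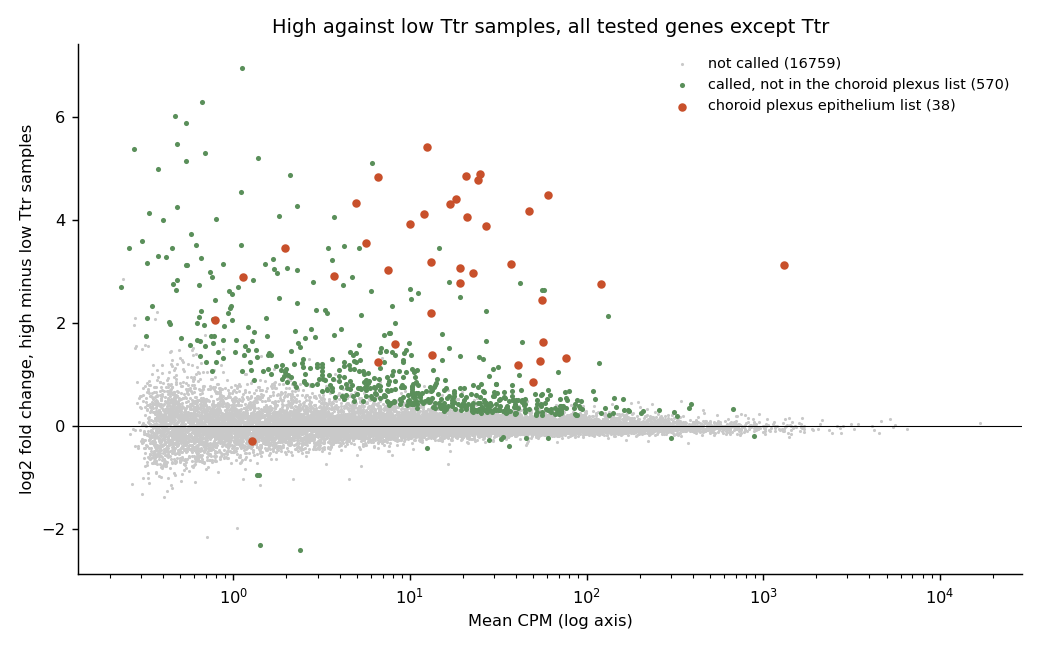
Log2 fold change of Ttr-high over Ttr-low samples against mean CPM (log axis) for every tested gene except Ttr. Orange points are the choroid plexus epithelium list, green points other called genes and grey points genes that were not called. The called genes lie mostly above 0, with 594 higher and 13 lower, and the list genes fill much of the upper range.

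Outside all lists, 444 genes called higher had a mean of at least 1 CPM, samples that did not overlap and a gene name other than a predicted one, and the 12 with the largest log2 fold changes are described here. Defb11, a beta-defensin gene, had 0, 0 and 1 reads in Dp1Tyb1, Dp1Tyb4 and WT2 and 47, 31, 69, 45 and 43 reads in Dp1Tyb5, Dp1Tyb3, WT4, WT5 and WT3, so no fold change is given. Cox8b, a subunit of cytochrome c oxidase best known from heart and muscle, had 3, 2 and 1 reads against 47, 64, 71, 45 and 49 reads. Both genes were near the limit of detection in the low samples. Prr32, a proline-rich protein, was better covered, at 0.183, 0.303 and 0.416 CPM against 10.2, 9.12, 8.66, 9.98 and 13.1 CPM (5.10 ± 0.24).

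Several of these genes encode epithelial or matrix proteins. Cdh3, P-cadherin, was at 0.0606 to 0.458 CPM in the low and 2.64 to 5.08 CPM in the high samples, and Wfdc2, a secreted protease inhibitor of epithelia, at 0.121 to 0.915 against 5.52 to 6.25 CPM. Col8a1, a collagen of basement membranes, was at 1.35, 1.39 and 3.29 CPM against 19.1, 17.2, 24.1, 29.2 and 32.0 CPM (3.46 ± 0.15). Col4a3, a basement membrane collagen chain also found in kidney, was at 0.688, 0.818 and 0.832 CPM against 8.17, 10.3, 6.60, 6.90 and 7.70 CPM (3.45 ± 0.18). Neither collagen overlapped between the groups.

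The others of the 12 were the RNA-binding protein Rbm47 (3.48 ± 0.22), the serine protease Tmprss11a, the sulfotransferase Sult1c2, Wdr72 and Tmem184a. The last 4 had few reads in Dp1Tyb1, Dp1Tyb4 and WT2, namely 3, 1 and 6 for Tmprss11a, 2, 0 and 5 for Sult1c2, 4, 0 and 10 for Wdr72 and 3, 1 and 10 for Tmem184a, so no fold change is given. In the high samples they had between 34 and 94 reads. All 12 stayed called when any 1 of the 8 samples was left out, as did 292 of the 607 called genes. The 12 were chosen for the largest differences among the calls, so this adds no support.

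Ependymal cells line the ventricle beside the plexus, and a list of ependymal and motile cilia genes was taken beside it. Of 14 tested genes 7 were called higher and 0 lower, with a median log2 fold change of 0.73, beside 3.42% called higher and a median of −0.0041 over all genes tested. The same 2 values stand beside the counts and medians of the lists that follow, and since the groups were formed from Ttr nothing is read from them. Tekt1, a tektin of ciliary microtubules, was at 2.13, 2.67 and 2.54 CPM in Dp1Tyb1, Dp1Tyb4 and WT2 and 6.39, 5.44, 5.84, 5.18 and 5.48 CPM in Dp1Tyb5, Dp1Tyb3, WT4, WT5 and WT3 (1.23 ± 0.14). Foxj1, the regulator of motile ciliogenesis, was at 7.54, 11.1 and 9.69 CPM against 18.3, 18.4, 13.3, 22.9 and 14.5 CPM (0.91 ± 0.18). The groups did not overlap for either gene, and for Foxj1 WT4 was the lowest of the high and Dp1Tyb4 the highest of the low samples.

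The other calls were Rsph1 (1.02) and Cfap126 (0.99), both of motile cilia, and the dynein genes Dynlrb2 (1.11), Dnah6 (1.09) and Dnah11 (1.06). Of the 7, Dnah11 overlapped between the groups. DESeq2 called 5 of the list, without Dnah6 and Dnah11. The calls of Dynlrb2 and Dnah6 were lost without WT2, Dp1Tyb1, Dp1Tyb3 or Dp1Tyb5, and that of Dnah11 without any 1 sample other than Dp1Tyb4. Ccdc153 and Tmem212, which mark ependymal cells, had log2 fold changes of −0.00094 and 0.04, with SE of 0.21 and 0.22. Spag17, of the ciliary central pair, was at 0.06 ± 0.32. Mia was not tested. The summed level of the list was 56.9 to 91.5 CPM in the low and 83.6 to 111 CPM in the high samples, which overlapped.

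Of 20 genes of plexus stroma and meninges, 3 were called higher and 0 lower, with a median of 0.18. Slc13a4, a sulfate transporter, was at 7.24, 8.18 and 8.404 CPM against 37.3, 28.2, 43.6, 42.5 and 52.0 CPM (2.23 ± 0.12), and Igf2, the insulin-like growth factor secreted by plexus and meninges, at 44.1, 42.8 and 39.5 CPM against 183, 142, 208, 209 and 248 CPM (2.13 ± 0.12). Neither gene overlapped between the groups. Slc6a20a, a proline transporter, was at 0.76 ± 0.12, and its call was lost without WT2.

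The 9 collagen and matrix members gave no call, but all had positive log2 fold changes, from 0.11 to 0.67 with a median of 0.32. The largest were those of Ogn (0.67 ± 0.24), where the groups overlapped, and Lum (0.62 ± 0.20), where they did not. Col1a1, Col1a2 and Col3a1 had log2 fold changes of 0.32 ± 0.23, 0.49 ± 0.22 and 0.11 ± 0.21, and Dcn, decorin, 0.30 ± 0.22. The meningeal genes Slc22a6 (−0.25 ± 0.42), Slc47a1 (−1.02 ± 0.49) and Aldh1a2 (−0.09 ± 0.31) were not called, and their levels overlapped between the groups. Slc22a6, an organic anion transporter, was at 4.36, 4.88 and 3.70 CPM in the low and 3.70, 1.16, 7.69, 2.70 and 7.27 CPM in the high samples, with WT4 and WT3 highest and Dp1Tyb3 lowest. Levels of these genes differed among the high samples themselves.

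Among vessel genes, the 8 general and blood-brain barrier endothelial genes gave no call, with a median log2 fold change of 0.031. The fenestrated endothelium that supplies the plexus is marked by Plvap, which forms the diaphragms of the fenestrae, and by Esm1, a secreted proteoglycan. Plvap was at 6.395, 4.94 and 7.57 CPM against 8.03, 8.16, 8.87, 9.51 and 9.81 CPM (0.42 ± 0.11), without overlap and not called. Esm1 was called, at 0.183 to 0.333 CPM in the low and 0.560 to 0.920 CPM in the high samples (1.71 ± 0.35), and the call was lost without WT2, Dp1Tyb1 or Dp1Tyb3.

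The 9 genes of mural cells gave no call (median 0.022), with Rgs5 at 0.09 ± 0.08 and Vtn at 0.04 ± 0.08. The 5 erythroid genes gave none either, with a median of −0.031. Hbb-bs, a beta-globin gene with near-identical copies, was at 19.2, 19.1 and 44.7 CPM in the low and 29.2, 21.4, 29.6, 29.3 and 34.4 CPM in the high samples, where WT2 was the highest of all samples. Hba-a1, an alpha-globin gene, was at 0.38 ± 0.28, and was called only when WT2 was left out. In these lists edgeR gave 0 genes with an unadjusted p under 0.05 and DESeq2 0 calls.

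Among border macrophage genes, 3 of the 8 tested were called higher, and all 3 belong to antigen presentation by MHC class II. Cd74, the invariant chain, was at 3.39, 2.67 and 2.33 CPM against 7.25, 6.60, 4.63, 5.88 and 8.08 CPM (1.25 ± 0.19). H2-Aa (1.30 ± 0.22) and H2-Ab1 (1.08 ± 0.20) encode the class II chains, and the call of H2-Ab1 was lost without WT2. Mrc1, Cd163 and Lyve1, which mark border macrophages, had log2 fold changes of 0.32 ± 0.32, −0.02 ± 0.27 and −0.19 ± 0.53, and Pf4 was not tested. The 10 microglia genes gave 0 calls in edgeR and DESeq2 (median −0.097, 2 with an unadjusted p under 0.05), with Csf1r at −0.13 ± 0.10.

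Genes that handle retinoids and thyroid hormone were listed because transthyretin carries both retinol-binding protein and thyroxine. Of 15 tested, 5 were called higher and 0 lower, with a median of 0.050. Rdh5, a retinol dehydrogenase, was at 1.99, 1.54 and 3.16 CPM against 13.4, 11.04, 15.4, 19.0 and 18.7 CPM (2.65 ± 0.14). The groups did not overlap. Aldh1a1, which makes retinoic acid, was not called and lower without overlap, at 46.8, 46.8 and 58.6 CPM against 43.8, 45.3, 35.1, 41.7 and 41.2 CPM (−0.29 ± 0.09).

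Also called were Stra6, the receptor for retinol-binding protein (0.61 ± 0.08), and the thyroid hormone transporter Slco1c1 (0.50 ± 0.07). Slco1c1 was at 61.7, 60.5 and 61.3 CPM in the low and 79.4, 83.1, 88.4, 94.8 and 103 CPM in the high samples, without overlap. Rbp4, the carrier that binds transthyretin, was at 0.01 ± 0.12. The thyroid hormone receptors Thra and Thrb, at 0.06 ± 0.05 and −0.02 ± 0.06, and the responsive genes Klf9 (−0.02 ± 0.05) and Hr (−0.03 ± 0.11) lay near 0 and were not called.

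Genes of the hippocampus itself gave 0 calls in edgeR. The 10 neuronal genes had a median of −0.044, with Camk2a at −0.07 ± 0.07 and Snap25 at −0.09 ± 0.05. The 16 markers of the dentate gyrus, CA1, CA2 and CA3 had a median of −0.024, with Mpped1 at −0.03 ± 0.06 and Fibcd1 at 0.05 ± 0.07. Astrocyte genes (7, median −0.043, Slc1a2 −0.13 ± 0.05, Slc1a3 −0.11 ± 0.05), oligodendrocyte lineage genes (11, median 0.064, Mbp 0.11 ± 0.09) and immediate early genes (11, median −0.15, Egr1 −0.11 ± 0.14, Arc −0.21 ± 0.14) were not called. DESeq2 gave 0 calls in these 5 lists too, and the genes with an unadjusted p under 0.05 in edgeR numbered 0 of the neuronal genes, 2 each of the field, astrocyte and oligodendrocyte genes and 1 of the immediate early genes. Summed neuronal levels, 10627 to 11160 CPM in the low and 10039 to 11002 CPM in the high samples, overlapped.

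Of 19 markers of neighbouring regions, 1 was called higher, where 3.42% of all genes tested were. Ppp1r1b encodes DARPP-32 and was listed as a marker of striatal neurons, but its call is not read as striatal tissue. It was at 23.01, 19.3 and 32.0 CPM against 48.1, 41.6, 50.5, 61.6 and 63.0 CPM (0.99 ± 0.09), without overlap. Of the other striatal markers, Drd1 (−0.38 ± 0.14), Drd2 (0.37 ± 0.22), Adora2a (−0.07 ± 0.22) and Rgs9 (−0.06 ± 0.08), were not called. The thalamic markers (median 0.030) and neocortical markers (median 0.013) gave no call.

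**Figure D4:**
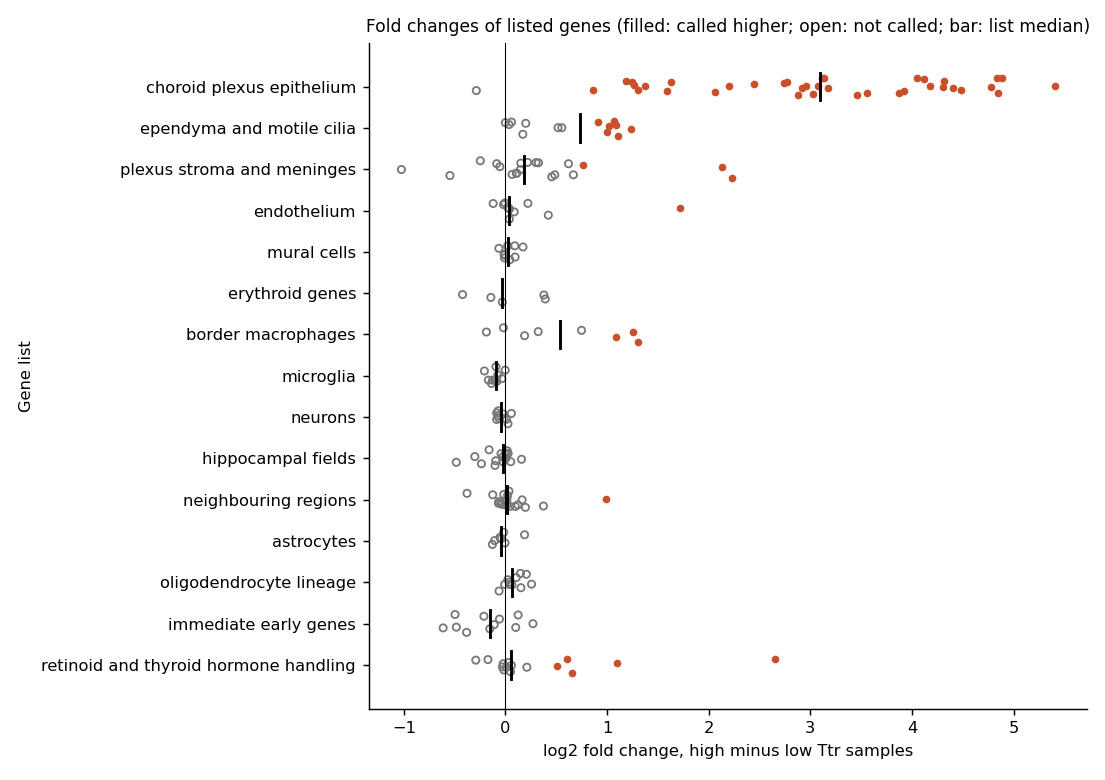
Log2 fold changes of Ttr-high over Ttr-low samples for the tested genes of 15 lists, 1 point a gene. Filled points were called higher, open points were not called and black bars are list medians. The choroid plexus epithelium list has a median of 3.09, the ependymal list 0.73 and the border macrophage list 0.54, and the other 12 medians lie between −0.15 and 0.18.

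The 13 genes called lower had small differences, with 11 of them under 2-fold. Both over 2-fold were the cerebellar granule cell genes Cbln3 and Fat2, which rest on WT2. Of the 9 others that did not overlap between the groups and had a mean of at least 1 CPM and a gene name, the 8 with the largest differences were Piwil2 (−0.96 ± 0.23), Col20a1 (−0.43 ± 0.09), Traip (−0.38 ± 0.06), Akap7 (−0.25 ± 0.06), Btbd3 (−0.24 ± 0.06), Emc8 (−0.24 ± 0.05), Blmh (−0.23 ± 0.05) and Sdccag8 (−0.22 ± 0.05). Emc8, a subunit of the complex that inserts membrane proteins into the endoplasmic reticulum, was at 67.5, 66.4 and 66.3 CPM against 57.2, 57.8, 54.0, 56.7 and 55.5 CPM. Without WT2, 0 of the 13 were still called, and 2 other genes, Acvr1c and E230020A03Rik, were called lower. Of the 8, 6 (all but Col20a1 and Traip) also lost the call without at least 1 other sample.

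The genotype of the mice was not used to form the groups. The per-sample level of the choroid plexus list did not differ by genotype beyond the spread between mice: Dp1Tyb minus WT was −1.16 on the log2 scale (WT 0.64 ± 1.19, Dp1Tyb −0.52 ± 1.63, SD, n = 5 each, exact two-sided permutation test over all relabellings, p = 0.214, adjusted p = 0.575 over 15 lists). When each sample was left out the difference ranged from −1.64 without WT2 to −0.69 without Dp1Tyb1, and its exact p from 0.119 to 0.429. Both samples with the least Ttr were Dp1Tyb and all 3 samples with the most were WT. Ttr formed the groups, so nothing is read from this. Of the other 14 lists, neurons (0.12, exact p = 0.00794, the smallest the design allows, adjusted p = 0.119) and endothelium (−0.074, exact p = 0.0397, adjusted p = 0.298) had the lowest p-values, and none passed after adjustment.

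The duplicated segment, from Lipi to Zbtb21, holds 250 annotated genes, and 6 of its 114 tested genes were called in high against low, all of them higher, where 3.5% of all genes tested were called. Nothing is read from that share. Of the 6, 2 belong to the choroid plexus list. Clic6 (chr16:92485736-92541243), a chloride intracellular channel protein, was at 1.58, 1.64 and 12.1 CPM in Dp1Tyb1, Dp1Tyb4 and WT2 and 122, 100.3, 78.5, 103 and 106 CPM in Dp1Tyb5, Dp1Tyb3, WT4, WT5 and WT3 (4.48 ± 0.44). Kcne2 (chr16:92292389-92298129), the accessory subunit of an apical potassium channel, was at 0.573, 0.576 and 3.66 CPM against 30.9, 33.7, 20.1, 30.9 and 33.6 CPM (4.40 ± 0.40). For both genes WT2 was several times above the other low samples, and the fold changes without it are not given here. Among all samples Clic6 was highest in Dp1Tyb5, and Kcne2 was about as high in Dp1Tyb3 as in WT3.

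The other 4 were Igsf5, a junctional adhesion protein (1.42 ± 0.31), 4932438H23Rik (1.06 ± 0.23), the mitochondrial ribosomal protein Mrps6 (0.52 ± 0.09) and Sod1, cytosolic superoxide dismutase (0.25 ± 0.06). Mrps6, which overlaps Slc5a3 on the same strand, was at 15.9, 12.9 and 9.53 CPM in Dp1Tyb1, Dp1Tyb4 and WT2 and 22.3, 20.2, 13.4, 12.2 and 14.2 CPM in Dp1Tyb5, Dp1Tyb3, WT4, WT5 and WT3. Within each genotype every high sample exceeded every low sample, whereas over both genotypes the groups overlapped.

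Relative to Ttr, Kcne2 and Clic6 were higher in Dp1Tyb than in WT samples. This was noticed after the values had been seen, and it was taken over the 7 samples with more than 1000 CPM of Ttr. Per 1000 counts of Ttr, Kcne2 had 5.68, 5.28, 6.80 and 6.87 counts in WT1, WT4, WT5 and WT3 and 9.72, 9.30 and 9.53 in Dp1Tyb2, Dp1Tyb5 and Dp1Tyb3, a ratio of geometric means (Dp1Tyb to WT) of 1.56. Clic6 had 16.0, 20.6, 22.7 and 21.7 counts in the WT and 28.5, 36.7 and 28.4 in the Dp1Tyb samples, a ratio of 1.54. Neither gene overlapped between the genotypes, and they held ranks 1 and 2 of the 38 genes. Both genes were picked from these values and no share over all genes was taken. The lack of overlap and the ranks are therefore a description only.

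For the 36 list genes outside the duplicated segment the median ratio was 1.09, with a range of 0.825 to 1.34. Of these, 2 did not overlap between the genotypes, Calml4 and Cab39l. Without a share over all genes beside it, that count is a description only. The ratios were not corrected for the level that a gene kept in the Ttr-low samples. That was 12.3% of the high mean for Calml4, 40.0% for Cab39l and 42.2% for Slc31a1, which has the ratio of 1.34. Per 1000 counts of Ttr, Cab39l had 31.5, 19.7 and 18.8 counts in Dp1Tyb2, Dp1Tyb5 and Dp1Tyb3, and Slc31a1 26.7, 15.1 and 13.6. Dp1Tyb2 had the least Ttr of these samples. The part of this in the ratios was not tested. The smallest p that an exact test of 3 against 4 samples allows is 0.0571, so none is given for these ratios.

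**Figure D5:**
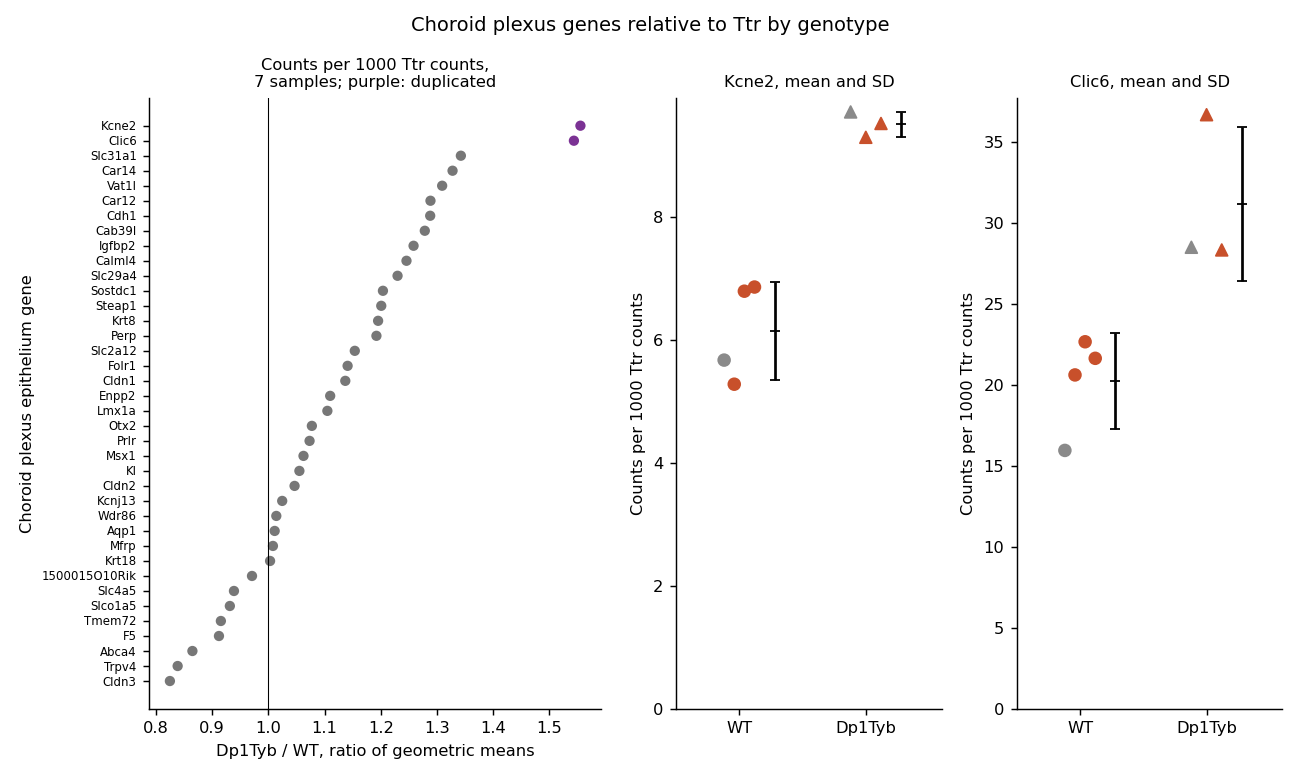
Counts of choroid plexus genes per 1000 counts of Ttr in the 7 samples with over 1000 CPM of Ttr. Left, ratio of Dp1Tyb to WT for the 38 genes, with both duplicated genes in purple at 1.56 and 1.54 and the other 36 between 0.825 and 1.34. Middle and right, values of Kcne2 and Clic6 in 4 WT (circles) and 3 Dp1Tyb (triangles) samples with mean and SD, coloured orange for Ttr-high samples and grey for samples in between.

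The test of these 2 genes over all 10 samples did not pass. In edgeR with log2 Ttr as covariate, the Dp1Tyb minus WT log2 difference was 0.54 ± 0.12 (SE) for Kcne2 (adjusted p = 0.0700 over 17236 genes) and 0.55 ± 0.15 for Clic6 (adjusted p = 0.138). In that fit without WT2 they were 0.52 (adjusted p = 0.165) and 0.54 (adjusted p = 0.272). Without the covariate, in all 10 samples, the differences were −0.43 ± 0.83 (adjusted p = 0.846) and −0.40 ± 0.87 (adjusted p = 0.865). In fits of the 7 samples alone, added after the values were seen, both genes passed (adjusted p = 0.00846 and 0.00498). With the 2-level Ttr group in place of log2 Ttr, a fit of the 8 grouped samples, the differences turned to −0.17 and −0.35. They did not pass (adjusted p = 0.884 and 0.758). That fit does not adjust for Ttr within the low group. There Ttr was at 361 CPM in WT2, 12.9 CPM in Dp1Tyb1 and 15.9 CPM in Dp1Tyb4. What this did to the sign was not tested. DESeq2 with log2 Ttr called Kcne2 (adjusted p = 0.00714) and did not call Clic6 (adjusted p = 0.198). Whether these differences passed, and with the 2-level group their sign, thus depended on the fit and the samples used.

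Genotype was tested over all genes with and without the Ttr level. Without it, 189 genes were called between Dp1Tyb and WT (1.10% of 17236 tested), of which 149 were higher, 40 were lower and 68 were in the duplicated segment. With log2 Ttr as covariate 121 were called (0.702%), of which 96 were higher, 25 were lower and 67 were duplicated. The fits shared 111 calls, 62 of them duplicated. Both counts depended on the fit and the samples. DESeq2 called 520 without and 269 with the covariate, and edgeR called 105 without the covariate when WT4 or Dp1Tyb2 was left out, 108 when Dp1Tyb3 was, and 77 with the covariate when Dp1Tyb3 was. In edgeR 0 genes of the choroid plexus list were called in either fit. With the covariate 2 of its 38 genes had an unadjusted p under 0.05 and DESeq2 called 1, Kcne2, and without it both counts were 0.

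Of the 10 genes called only with the covariate, 5 lay in the duplicated segment, namely Chaf1b, a chromatin assembly factor subunit, the kinase Ripk4, Mrps6, the interferon receptor subunit Ifnar2 and the oligodendrocyte lineage factor Olig2. Mrps6 moved from 0.51 ± 0.14 (adjusted p = 0.105) to 0.72 ± 0.10 (adjusted p = 0.000841). Ifnar2 moved from 0.44 ± 0.11 (adjusted p = 0.0741) to 0.58 ± 0.09 (adjusted p = 0.00626), a call that was lost without Dp1Tyb5. Robo3, an axon guidance receptor outside the segment, moved from −0.45 ± 0.13 to −0.61 ± 0.11 (adjusted p = 0.121 and 0.0159), and its call was lost without WT2, Dp1Tyb2, Dp1Tyb3 or Dp1Tyb5. The calls of Chaf1b (1.27 ± 0.27, adjusted p = 0.0450) and Ripk4 (1.13 ± 0.22, adjusted p = 0.0263) did not hold in 10 and in 6 of the 10 fits with 1 sample removed.

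Of the 78 genes called only without the covariate, 6 were duplicated. Those with the largest differences were Gja5, a connexin of arteries, Cyp11a1, a steroidogenic enzyme, Gm9946, Clrn1 and Neurog2, a neurogenic factor. Their log2 differences with the covariate, 1.13, −0.96, 1.02, 1.03 and 1.00, were close to those without it, 1.14, −1.04, 1.02, 1.00 and 0.90, while the adjusted p-values rose from between 0.0156 and 0.0485 to between 0.0557 and 0.134. For these 5 genes the call changed and the size of the difference hardly did. All 5 calls were lost in at least 2 of the 10 fits that left out 1 sample.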

How the data were processed

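Poly(A) RNA of 10 hippocampi was sequenced as stranded 75-base paired-end libraries. The authors trimmed adapters with TrimGalore, mapped reads to GRCm38 with TopHat 2.0.12, dropped reads with more than 1 alignment and deposited counts per Ensembl gene from htseq-count, which are whole numbers and not normalized. The strand setting and the annotation release are not given in the sources used here, so values of overlapping genes are uncertain. A table of normalized values and the authors' DESeq2 comparison of the genotypes, with fold changes and p-values, were not used.

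CPM were counts divided by the column total for Ttr and the sum of the choroid plexus list in the text, and by the TMM library size elsewhere (factors 0.985 to 1.02). Symbols and positions came from GENCODE M21, which matched 42548 of 43629 gene IDs. Tests used edgeR 4.0.16 in R 4.3.3 (quasi-likelihood, filterByExpr, Benjamini-Hochberg over all tested genes), with genotype as covariate for high against low. The SE of an edgeR fit was derived as the absolute log2 fold change divided by the square root of its F statistic. List medians per sample used log2 CPM with a prior count of 0.5. Scripts were tested on simulated counts. Groups, gene lists and named genes were chosen with earlier results of these data known. Named genes were the markers, up to 3 others per role of the choroid plexus list, up to 4 called members of other lists (or the 2 most abundant), outside the lists the 12 higher and 8 lower with the largest change among genes with no overlap and a mean of at least 1 CPM, and for genotype the choroid plexus list and 5 genes called only with or only without the covariate; Cdh1, other list members that are described, the granule cell genes, Sod1, Igsf5, 4932438H23Rik, Acvr1c, E230020A03Rik and Olig2 were added after their values were seen. Among 45 pairs of libraries, chi-square per degree of freedom was 4.68 or more, so all 10 were counted as separate samples. The labels give no batch, so no value within batches could be made. Alternatives were DESeq2 1.42.0, limma 3.58.1, other size factors, no filter, other covariates, the replicate block and leaving out each sample. Fits of the 7 samples with over 1000 CPM of Ttr were chosen after seeing the data. Some genes counted in the lists are not reported here by name.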

Additional observations from a re-analysis of the deposited data

Results flagged for a closer look

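Dp1Tyb3 had a low median level of the microglia list (log2 −0.32), whereas the remaining 4 Dp1Tyb samples lay between 0.0084 and 0.032, so that its gap to the nearest took 0.933 of the whole Dp1Tyb range. Within the Ttr-high samples the gap of Dp1Tyb3 took 0.745 of the range, and the remaining 4 lay between −0.045 and 0.048. For the neuron list WT5 was low (log2 −0.17), whereas the remaining 4 WT samples lay between −0.059 and −0.015, a gap that took 0.719 of the WT range. Of 51 groups checked in this way 3 stood out, where chance gives about 5%.

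The erythroid list went in opposite directions in the genotypes, which differed by 0.993. High minus low was 0.46 on the log2 scale within Dp1Tyb and −0.53 within WT. The low group of WT is WT2 alone, and this difference was not tested.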

How the results depend on the processing

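The number of genes called in high against low (607) was 1132 with no filter on low counts, 367 with log2 Ttr as a continuous term over 10 samples, and between 362 and 620 when each sample was left out, lowest without WT2. DESeq2 called 688 of which 585 were also called by edgeR, limma voom 583, and the fit without genotype 651. In the choroid plexus list 36 genes, and in all 292 genes, were called in every fit that left out 1 sample. The difference of the list median ranged from 2.90 to 3.46 over its alternatives. For genotype, the fit with log2 Ttr (121 calls) gave 269 with DESeq2 and between 77 and 143 when each sample was left out, lowest without Dp1Tyb3. The fit without the covariate (189 calls) gave 520 with DESeq2 and between 105 and 217 when each sample was left out, lowest without WT4 or Dp1Tyb2 (105 each) and 108 without Dp1Tyb3.

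The labels do not say what replicate numbers share, and the numbers were not taken to pair the samples. Deviations of same-numbered samples correlated between −0.069 and 0.28, over 0.1 in 3 of 5 pairs, and 1 of 5 WT samples matched best to its own number. With the replicate block the calls were 311 without the covariate and 124 with log2 Ttr. For high against low a fit with genotype and the replicate block, chosen after seeing the data, left 1 residual degree of freedom and only replicate number 4 holds both a high and a low sample. It called 138 genes (130 higher and 8 lower), and the differences of Dnah6 and Dnah11 turned to −0.21 and −0.10.

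For Kcne2 the genotype difference given Ttr ranged from −0.17 (2-level Ttr group, 8 samples) to 0.69 over the alternatives. Its adjusted p was 0.00714 with DESeq2, 0.00647 with no filter, 0.0593 with the replicate block and 0.412 with the choroid plexus list as covariate. For Clic6 the range was −0.35 (2-level Ttr group, 8 samples) to 0.79. Its adjusted p was 0.198 with DESeq2, 0.0116 with no filter, 0.0395 with the replicate block and 0.494 with the list as covariate. When each sample was left out, Kcne2 passed in 3 and Clic6 in 1 of the 10 fits. In the 7 samples with the list as covariate, both passed (0.0235 and 0.00104). The cause was not tested. The low group of 3 samples and, for genes under 1 CPM, the counts behind them limit the precision.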
